A study of Mus musculus with 79 samples.

Results

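The genes described here are 31 genes of fatty acid oxidation and ketone body metabolism. They were picked by symbol, with earlier results of these data known, from 39063 genes with a numeric gene ID. All 31 passed a filter on low expression (average TPM across the 79 libraries of 0.4 or more), which left 14873 genes. TPM is a share of a library's reads corrected for transcript length, so levels of different genes are compared on this scale only. The study asked how leptin delivered to the brain acts on bone marrow adipocytes and on other fat. RNAseq was run on bulk tissue from 3 sites: caudal vertebrae (CV), whose marrow is rich in fat, lumbar vertebrae (LV), whose marrow is mostly blood-forming, and inguinal white adipose tissue (iWAT), a subcutaneous depot. Mice aged 4 to 5 months received leptin at 100 ng/h, or PBS as the vehicle, through an intracerebroventricular (ICV) cannula for 9 days, and some males also received subcutaneous insulin over the same time. The age is that of the series description, and other descriptions of these mice extend to somewhat older animals. WT mice were BMAd-Pnpla2+/+ and cKO mice were BMAd-Pnpla2-/-. Pnpla2 encodes the lipase that starts triglyceride breakdown, and in the cKO mice it is deleted by a Cre that is active in bone marrow adipocytes, so other cells of the vertebra keep the gene.

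Female WT mice gave CV, LV and iWAT with PBS (5 mice) and with leptin (5 mice). Female cKO mice gave CV and LV with PBS (4 mice) and with leptin (4 mice). Male WT mice gave CV with PBS (5), leptin (8), PBS and insulin (5) and leptin and insulin (6), and male cKO mice gave CV with PBS (5) and leptin (4). Each library of a group came from its own mouse, 51 mice in all, and the 3 tissues of a female WT mouse came from the same animal. Total counts were 16100377 to 19364106 per CV library, 28717516 to 29757254 per LV library and 17638318 to 19100698 per iWAT library. Pnpla2 itself was at 217 to 288 TPM in female WT CV with PBS and at 131 to 256 TPM in female cKO CV with PBS, and the cKO against WT difference was not called (-0.53 ± 0.16 (SE), adjusted p = 0.369). In male CV the Pnpla2 difference was -0.49 ± 0.20 (SE), adjusted p = 0.917, and in female LV it was -0.04 ± 0.13 (SE), adjusted p = 1.00. Tissue markers differed strongly between sites. Among female WT mice with PBS, Adipoq, an adipocyte hormone, was at 241.5 to 983 TPM in iWAT, 60.4 to 97.3 TPM in CV and 0.82 to 1.98 TPM in LV. Bglap, the osteoblast protein osteocalcin, was at 725 to 1460 TPM in CV and 569 to 982 TPM in LV and was listed at 0 in all 5 iWAT libraries. The muscle actin gene Acta1 was at 4522 to 14525 TPM in CV, against 179.9 to 642 TPM in LV and 9.77 to 625.4 TPM in iWAT, so CV libraries held much muscle RNA.

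Long-chain fatty acids are activated to acyl-CoA, carried into mitochondria as carnitine esters and shortened there in a repeating spiral of 4 reactions, dehydrogenation, hydration, a second dehydrogenation and thiolysis, whose electrons pass through the electron transfer flavoprotein. Peroxisomes run a parallel spiral with their own bifunctional enzymes and thiolases on very long, branched and dicarboxylic fatty acids. Ketone bodies made from acetyl-CoA in the liver are burned elsewhere by Bdh1, Oxct1 and Acat1, while the nuclear receptor Ppara raises transcription of many of these genes and Pdk4 spares glucose by blocking pyruvate dehydrogenase. By step, 4 members serve mitochondrial entry, 3 activation and thioester hydrolysis, 8 the mitochondrial spiral, 2 the side reactions for unsaturated chains, 3 electron transfer, 6 the peroxisome, 2 regulation and 3 ketone metabolism.

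The promoters of a pair of peroxisomal thiolases and a pair of acyl-CoA thioesterases are shown because the members of each pair did not move together. Acaa1a (chromosome 9, 119341028 to 119350296) and Acaa1b (chromosome 9, 119148043 to 119157093) are neighbours, as are Acot1 (chromosome 12, 84009502 to 84017670) and Acot2 (chromosome 12, 83987861 to 83993877), on the build GRCm38.p6. Each sequence runs 5′ to 3′ on the gene's own strand from 250 bases before to 50 bases after the RefSeq transcript start, and the windows are chr9:119341044-119341343 on the plus strand, chr9:119157044-119157343 on the minus strand, chr12:84009252-84009551 on the plus strand and chr12:83987611-83987910 on the plus strand. For Acaa1a the transcript start used lies inside the gene span given above, so its whole window falls within that span. The windows of Acaa1b, Acot1 and Acot2 cross the 5′ end of their spans. The Acaa1a window may thus cover a start other than the outermost one. Capitals mark CCAAT, a common promoter box, on either strand (ATTGG on the strand shown).
Acaa1a: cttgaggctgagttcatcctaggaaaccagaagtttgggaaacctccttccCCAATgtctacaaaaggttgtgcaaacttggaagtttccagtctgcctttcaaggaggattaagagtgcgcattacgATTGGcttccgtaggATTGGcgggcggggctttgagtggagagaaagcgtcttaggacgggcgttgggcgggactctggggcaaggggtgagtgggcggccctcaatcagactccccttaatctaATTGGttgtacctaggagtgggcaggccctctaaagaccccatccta
Acaa1b: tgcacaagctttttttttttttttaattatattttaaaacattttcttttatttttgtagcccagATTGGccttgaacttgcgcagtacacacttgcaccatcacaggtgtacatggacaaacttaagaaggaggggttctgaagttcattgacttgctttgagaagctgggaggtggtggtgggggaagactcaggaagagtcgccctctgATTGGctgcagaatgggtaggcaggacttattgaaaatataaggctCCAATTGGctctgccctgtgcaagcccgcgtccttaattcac
Acot1: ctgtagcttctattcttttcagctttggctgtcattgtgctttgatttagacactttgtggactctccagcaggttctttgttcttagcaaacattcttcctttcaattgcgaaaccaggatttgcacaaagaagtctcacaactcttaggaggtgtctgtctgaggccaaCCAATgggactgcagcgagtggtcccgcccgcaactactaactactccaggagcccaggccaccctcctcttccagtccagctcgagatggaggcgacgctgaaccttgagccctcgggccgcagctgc
Acot2: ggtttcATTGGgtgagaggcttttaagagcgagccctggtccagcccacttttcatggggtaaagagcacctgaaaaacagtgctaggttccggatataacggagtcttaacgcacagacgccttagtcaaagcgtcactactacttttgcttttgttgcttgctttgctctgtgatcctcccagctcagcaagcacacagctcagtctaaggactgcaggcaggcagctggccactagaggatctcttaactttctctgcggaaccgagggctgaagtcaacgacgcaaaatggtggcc
Acaa1a and Acaa1b each held 4 boxes, the last 2 of Acaa1b overlapping, and Acot1 and Acot2 held 1 each. Of 266 aligned bases 158 (59.4%) were identical between the thiolase promoters, and of 265 aligned bases 149 (56.2%) between the thioesterase promoters, with no shared run of 12 bases in either pair. CCAAT occurred in 13 of the 26 member promoters at hand (50%) and in 37.4% of 32851 promoters of the same length. AGGTCA, a core motif that PPARs and other nuclear receptors bind, occurred on either strand in 3 of 26 member promoters (11.5%; Acadm, Acadvl and Cpt1a) and in 16.3% of all promoters. A direct repeat of AGGTCA with 1 base between the copies occurred in 0 of 26 member promoters and in 0.0396% of all promoters, which says only that these letters were not in this window. Within transcripts, 19.3% of the 100-base windows of Acaa1b also occurred in another gene, Acaa1a among them, as did 7.21% of those of Acaa1a, 12.4% of those of Acot1 and 17.1% of those of Acot2, so part of each gene's reads could be split between copies.

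The first comparison asked where the pathway's transcripts were most abundant, across the 3 tissues of the 5 female WT mice with PBS. iWAT had the highest levels of most members. With edgeR's quasi-likelihood test, 28 of 31 members were called higher in iWAT than in CV and none lower, beside 50.9% of all genes called (25.2% higher and 25.6% lower), a call being an adjusted p below 0.05 and a log2 fold change of at least 0.5 in size. The members' median log2 fold change was 1.75, against 0.01 over all genes. In bulk tissue, more cells of a type and more RNA per cell cannot be told apart. The CV and LV vertebrae differed less for these genes. In CV against LV, 12 members were called higher and 4 lower, beside 66.3% of all genes (34.7% higher and 31.6% lower), with a member median of 0.26. On the TPM scale all 31 members were higher in CV than in LV, but the median of all genes was also 1.09 log2 units higher there. Every CV library lay above every LV library for 29 members, but also for 71.6% of all genes, so this lack of overlap marks little. Every iWAT library lay above every CV library for 28 members and 22% of all genes. In the 5 LV libraries with PBS the erythroid markers summed to 243468 to 328015 TPM and the neutrophil markers to 151915 to 184143 TPM. The tested fold changes used TMM scaling, under which the median of all genes was 0.02.

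**Figure D1:**
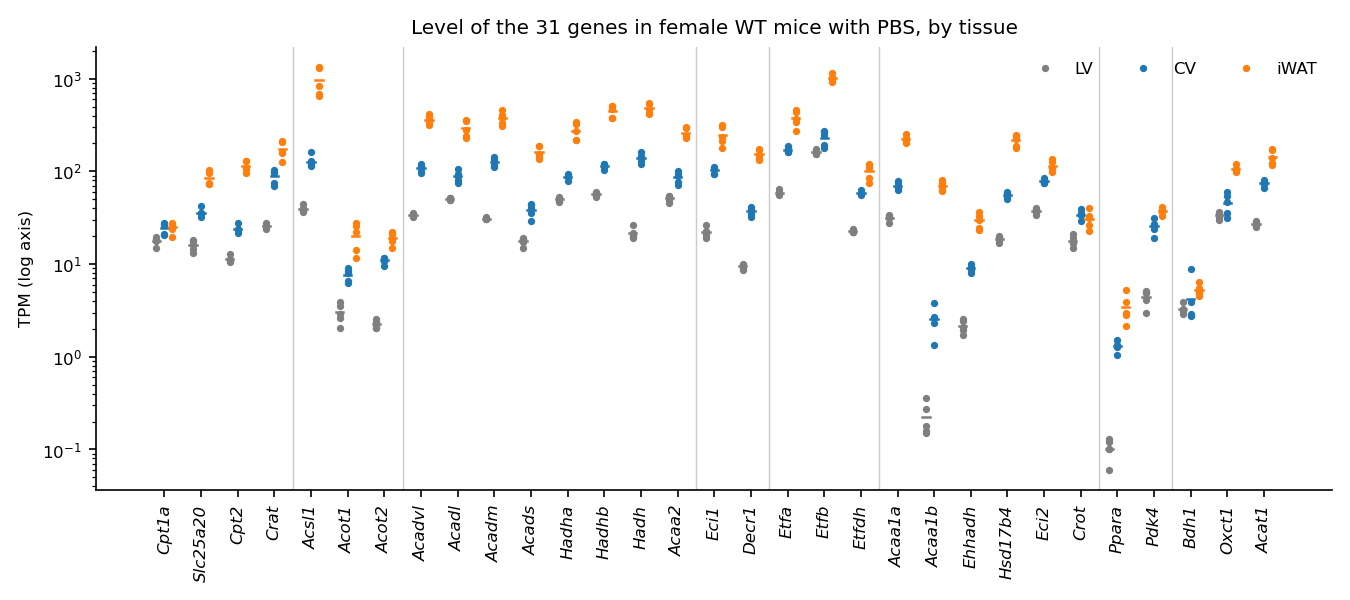
Level of each of the 31 members in TPM (log scale) in LV (grey), CV (blue) and iWAT (orange) of female WT mice given PBS. Dots are libraries (5 per tissue) and bars are means; for 30 members the iWAT mean lies above the CV mean.

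Among the genes of mitochondrial entry, Cpt1a, the outer-membrane transferase that commits fatty acids to the carnitine route, was at 18.5, 14.9, 17.7, 18.6 and 19.6 TPM in LV, 20.8, 20.9, 26.7, 27 and 27.9 TPM in CV and 24.1, 19.4, 28, 27.3 and 26 TPM in iWAT. Its TPM ranges in CV and iWAT overlapped, and it was lower in CV than in LV on the tested scale (-0.64 ± 0.12 (SE), adjusted p = 8.69e-05) and not called in iWAT against CV (0.20 ± 0.12 (SE), adjusted p = 0.142). Cpt2, the inner-membrane partner that restores the acyl-CoA, was at 23, 28, 23.3, 21.6 and 23.9 TPM in CV and 107, 109.7, 95.7, 128 and 128 TPM in iWAT, with every iWAT library above every CV library (2.42 ± 0.10 (SE), adjusted p = 8.92e-12). The translocase Slc25a20 and the acetyl transferase Crat were also higher in iWAT than in CV, by 1.42 and 1.09 on the log2 scale. Acsl1, which activates long-chain fatty acids, was at 43.9, 37.3, 39.8, 36.7 and 37.9 TPM in LV, 128, 160.6, 116.5, 114.5 and 116 TPM in CV and 830, 650.1, 678.5, 1331 and 1294 TPM in iWAT. The 3 tissues did not overlap for Acsl1, and it was higher in iWAT than in CV (3.08 ± 0.21 (SE), adjusted p = 1.96e-09) and higher in CV than in LV (0.64 ± 0.19 (SE), adjusted p = 0.00589).

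All 8 genes of the mitochondrial spiral were higher in iWAT than in CV, by 1.75 (Acadm) to 2.25 (Acads) on the log2 scale. Acadm, the medium-chain dehydrogenase, was at 32.1, 30.4, 31.8, 30.4 and 30.3 TPM in LV, 136, 144, 129, 116 and 113 TPM in CV and 381, 334, 308, 410.2 and 464 TPM in iWAT. The 3 tissues did not overlap, and CV exceeded LV (0.93 ± 0.11 (SE), adjusted p = 1.07e-06). Hadha, the alpha subunit of the trifunctional protein for long chains, was at 51.4, 47.6, 52.8, 46.6 and 51.2 TPM in LV, 89.6, 93.4, 92, 86.1 and 78.9 TPM in CV and 275, 216, 217, 343 and 322 TPM in iWAT. Hadha was not called between CV and LV (-0.29 ± 0.12 (SE), adjusted p = 0.0387), nor was its partner Hadhb (-0.08 ± 0.09 (SE), adjusted p = 0.399), so the long-chain complex did not share the CV excess of Acadm. Hadh, the short-chain hydroxyacyl dehydrogenase, had the widest gap of the spiral between the vertebrae, with 19.2, 21.7, 20.1, 20 and 26.7 TPM in LV and 163.1, 145, 136.5, 129 and 119 TPM in CV (1.57 ± 0.13 (SE), adjusted p = 1.05e-08). Acadvl, the very-long-chain dehydrogenase, was the remaining spiral gene called between CV and LV (0.58 ± 0.10 (SE), adjusted p = 6.43e-05). Decr1 and Eci1, which handle double bonds, were both higher in CV than in LV (0.88 and 1.08) and in iWAT than in CV (2.22 and 1.45). Etfb, the beta subunit of the electron transfer flavoprotein, had the highest mean TPM of the 31 members in iWAT, at 972.5, 1161, 989, 1050 and 919 TPM against 247.5, 273, 263, 193 and 179.9 TPM in CV. The Etfb difference was 2.32 ± 0.14 (SE), adjusted p = 7.55e-10, while 35.8% of the 100-base windows of its transcripts were shared with another gene model.

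Of the 6 peroxisomal members, 5 were higher in iWAT than in CV and Crot, which makes carnitine esters for export from the peroxisome, was not called (-0.02 ± 0.11 (SE), adjusted p = 0.893). Acaa1b, a peroxisomal thiolase, had the largest log2 difference of any member between iWAT and CV. It was at 0.16, 0.18, 0.15, 0.27 and 0.36 TPM in LV, 2.63, 3.81, 2.68, 2.3 and 1.35 TPM in CV and 62.1, 62.5, 70.1, 74.4 and 80 TPM in iWAT. No library of 1 tissue overlapped with another, and the differences were 2.40 ± 0.29 (SE), adjusted p = 1.01e-06 for CV against LV and 4.97 ± 0.20 (SE), adjusted p = 7.34e-12 for iWAT against CV. The LV values rest on 7 to 15 reads per library. Its neighbour Acaa1a was at 68.2, 75, 78.5, 63.1 and 64.2 TPM in CV and 209, 255, 231, 221.5 and 202 TPM in iWAT. The mean ratio of Acaa1b to Acaa1a in TPM was thus 0.0071 in LV, 0.036 in CV and 0.315 in iWAT, each with 5 libraries. Ehhadh, the peroxisomal bifunctional enzyme of the L-hydroxy route, was at 2.44, 2.12, 2.54, 1.71 and 1.95 TPM in LV, 9.15, 9.95, 8.05, 8.62 and 9.27 TPM in CV and 29.7, 23.6, 24.7, 33 and 36.9 TPM in iWAT, again with no overlap. Hsd17b4, the bifunctional enzyme of the D-hydroxy route, was at 53.2, 60.6, 50.6, 54 and 58.1 TPM in CV and 223, 189.3, 177.9, 243 and 249 TPM in iWAT (2.15 ± 0.09 (SE), adjusted p = 1.41e-11).

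Both regulators had their lowest level in LV. Ppara was at 0.06, 0.10, 0.12, 0.10 and 0.13 TPM in LV, 1.29, 1.33, 1.05, 1.3 and 1.52 TPM in CV and 2.97, 2.15, 2.79, 3.93 and 5.26 TPM in iWAT, with no overlap between tissues. Its log2 difference of CV against LV was 2.63 ± 0.26 (SE), adjusted p = 7.43e-08. Pdk4 was at 5.01, 4.06, 2.94, 5.1 and 4.92 TPM in LV, 31.2, 26.7, 24, 27.2 and 19.2 TPM in CV and 36.4, 36.9, 32.8, 38.6 and 41.2 TPM in iWAT, and CV exceeded LV (1.43 ± 0.17 (SE), adjusted p = 7.53e-07). Of the 3 ketone genes, Oxct1 and Bdh1 were called lower in CV than in LV and Acat1 was not called (0.34 ± 0.11 (SE), adjusted p = 0.0087). Oxct1, the rate-setting enzyme of ketone use, was at 36.6, 32.5, 35.9, 29.8 and 33 TPM in LV, 47.1, 54.1, 60.4, 31.6 and 35.3 TPM in CV and 107, 97.6, 105.5, 102 and 120.3 TPM in iWAT. On the tested scale Oxct1 was lower in CV than in LV (-0.65 ± 0.15 (SE), adjusted p = 0.000927) and higher in iWAT than in CV (1.39 ± 0.15 (SE), adjusted p = 6.78e-07). Bdh1, which interconverts the 2 main ketone bodies, was at 3.24, 3.15, 3.2, 2.89 and 3.93 TPM in LV, 2.78, 3.88, 8.87, 2.83 and 2.87 TPM in CV and 5.05, 6.41, 4.82, 4.52 and 5.55 TPM in iWAT. CV replicate 3 stood far above the other 4 CV libraries for Bdh1, the CV against LV difference was -0.72 ± 0.28 (SE), adjusted p = 0.0248, and it lost its call when mouse 1, 2, 4 or 5 was left out. Markers of other cells moved with these site differences. Of 20 skeletal muscle markers 18 were higher in CV than in LV and 19 lower in iWAT than in CV, all 10 adipocyte markers were higher in CV than in LV and in iWAT than in CV, and all 9 erythroid markers were lower in CV than in LV. Their part in the member differences was not tested.

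The next comparisons asked what ICV leptin did to the pathway in the fatty marrow of CV. In female WT CV, 1 of 31 members was called, Acaa1b, which rose, beside 5.04% of all genes (2.78% higher and 2.25% lower). In male WT CV, 1 of 31 was called, again Acaa1b and again higher, beside 1.75% of all genes (0.834% higher and 0.914% lower). In both sexes the share of members called was close to or under the background. The log2 fold change was under 0.5 in size for 28 of 31 members in females and 29 of 31 in males. Beside Acaa1b the exceptions were Acsl1 and Bdh1 in females and Pdk4 in males, none of them called. In each sex 25 of 31 members were negative, with a median of -0.18, against a median over all genes of -0.01 in females and 0.00 in males.

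Acaa1b was at 2.63, 3.81, 2.68, 2.3 and 1.35 TPM in the 5 female WT CV libraries with PBS and at 5.13, 3.96, 7.3, 8.55 and 6.16 TPM in the 5 with leptin. Every leptin library was above every PBS library (1.198 ± 0.26 (SE), adjusted p = 0.0190), as for 3.81% of all genes. In male WT CV it was at 1.85, 1.08, 4.61, 1.77 and 2.1 TPM with PBS, and with leptin its lowest, median and highest of 8 libraries were 3.35, 7.81 and 16 TPM. The male groups overlapped because PBS replicate 3 was high and leptin replicate 7 was low (1.86 ± 0.39 (SE), adjusted p = 0.0184). The Acaa1b reads behind these values were few, 22 to 62 per library with PBS and 72 to 134 with leptin in females. Acaa1a did not follow, with 68.2, 75, 78.5, 63.1 and 64.2 TPM for PBS and 61.8, 69.8, 66.9, 75.1 and 67.2 TPM for leptin in female WT CV (-0.07 ± 0.11 (SE), adjusted p = 0.737) and a male log2 fold change of -0.04 ± 0.08 (SE), adjusted p = 0.815. The mean ratio of Acaa1b to Acaa1a went from 0.036 with PBS to 0.091 with leptin in females and from 0.037 to 0.142 in males. The leptin effect on Acaa1b was not called different between males and females (0.64 ± 0.50 (SE), adjusted p = 0.817), and over all genes 0% were called for that difference. No member was called there with edgeR or DESeq2, and 1 had an unadjusted p below 0.05, beside 7.6% of all genes. The mouse numbers of these PBS and leptin groups fell into a lower and a higher series. Mean Acaa1b with leptin and PBS was 4.55 and 3.04 TPM in the lower and 7.34 and 1.83 TPM in the higher series for females, and 7.63 and 2.51 TPM in the lower and 9.63 and 1.94 TPM in the higher series for males. With the muscle marker level as a covariate the log2 fold change was 1.29 in females (adjusted p = 0.0574) and 1.52 in males (adjusted p = 0.180), no longer called. With the erythroid level it was 1.62 in females (adjusted p = 0.293) and 0.72 in males (adjusted p = 1.00). With the adipocyte level it was 1.62 (adjusted p = 0.0483) and 2.496 (adjusted p = 0.0115), called in both sexes. Leaving out PBS replicate 1 or leptin replicate 4 in females, or PBS replicate 2, 4 or 5 in males, raised it to at most 0.0626.

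**Figure D2:**
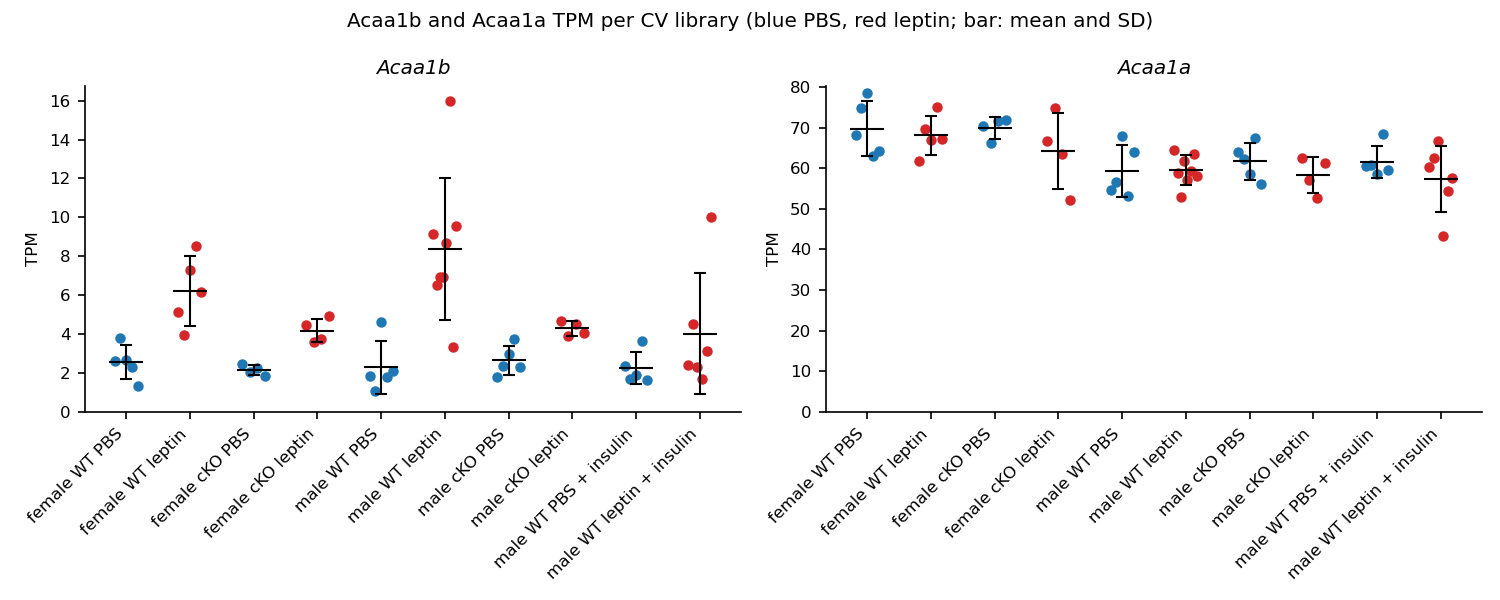
Acaa1b and its neighbour Acaa1a in CV, in TPM per library, by sex, genotype and treatment; blue dots are PBS, red dots leptin, and bars give the mean and SD. Acaa1b lies higher with leptin than with PBS in female WT CV without overlap, while Acaa1a covers the same range in both.

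In cKO CV the Acaa1b values were also higher with leptin, without passing the test. Female cKO CV had 2.45, 2.04, 2.27 and 1.82 TPM with PBS and 4.44, 3.61, 3.74 and 4.92 TPM with leptin. The groups did not overlap (1.12 ± 0.22 (SE), adjusted p = 0.14). Male cKO CV had 1.81, 2.36, 2.99, 3.75 and 2.3 TPM with PBS and 4.68, 3.91, 4.53 and 4.05 TPM with leptin. These groups did not overlap either (0.73 ± 0.23 (SE), adjusted p = 0.291). With leptin, 1.39% of all genes lay wholly above PBS in female cKO CV and 0.901% in male cKO CV. Wholly below PBS lay 3 members in females (Acsl1, Acadvl and Hadh) and 3 in males (Acsl1, Acadm and Decr1). Beside these, 3.62% and 1.82% of all genes lay wholly below. Mean Acsl1 in female cKO CV was 111.9 TPM with PBS and 62.1 TPM with leptin. Mean Bdh1 there was 6.63 and 15.3 TPM, with overlapping groups. No member was called by edgeR in female cKO CV, where edgeR called 0.0269% of all genes. With edgeR an unadjusted p below 0.05 was found there for 4 members, beside 11.6% of all genes. DESeq2 called 2 members in female cKO CV, Acaa1b and Acsl1. The share of all genes called by DESeq2 is not given here. None was called by edgeR or DESeq2 in male cKO CV, where 0.188% of all genes were called. There 7 members had an unadjusted p below 0.05, beside 9.7% of all genes. The difference in the leptin effect on Acaa1b between cKO and WT was -0.10 ± 0.35 (SE), adjusted p = 0.98, in females and -1.13 ± 0.51 (SE), adjusted p = 1.00, in males. For these genotype differences 0% of all genes were called in females and 0% in males, and no member was called by edgeR or DESeq2. An unadjusted p below 0.05 was found for 2 members in females and 1 in males, beside 6.1% and 2.6% of all genes.

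No mitochondrial member was called in WT CV of either sex by edgeR. Acadm was at 136, 144, 129, 116 and 113 TPM with PBS and 79.3, 108, 105, 98.1 and 94 TPM with leptin in female WT CV. Every leptin library was below every PBS library, and the difference did not pass the adjusted threshold (-0.43 ± 0.13 (SE), adjusted p = 0.0648). In this comparison 4 of 31 members and 2.75% of all genes lay wholly below PBS. Eci1 passed the adjusted threshold in female WT CV but not the fold threshold (-0.39 ± 0.11 (SE), adjusted p = 0.0459), with 112.5, 106, 108, 93 and 94.3 TPM against 78, 86.2, 80.1, 79.4 and 78.9 TPM and no overlap. Acsl1 was at 128, 160.6, 116.5, 114.5 and 116 TPM with PBS and 69, 113, 102, 75.7 and 80 TPM with leptin in female WT CV, without overlap (-0.55 ± 0.18 (SE), adjusted p = 0.082), and DESeq2 called it. Hadha was at 89.6, 93.4, 92, 86.1 and 78.9 TPM with PBS and 63.6, 76.4, 83.4, 78.2 and 75.7 TPM with leptin, with an overlap at the upper leptin library (-0.25 ± 0.10 (SE), adjusted p = 0.15). In male WT CV the nearest to a call after Acaa1b were Crat (-0.33 ± 0.09 (SE), adjusted p = 0.0508) and Hadh (-0.36 ± 0.09 (SE), adjusted p = 0.0536). Without leptin replicate 2, 5 members were called in female WT CV, Acadm, Acsl1, Crat and Hadh joining Acaa1b. The share of all genes called in that fit is not given here.

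Cpt1a was at 20.9, 22.6, 40.4, 31 and 27.4 TPM with leptin in female WT CV, on both sides of its PBS values (0.17 ± 0.14 (SE), adjusted p = 0.491), and its male difference was 0.18 ± 0.11 (SE), adjusted p = 0.39. Pdk4 varied more between libraries than between groups. In female WT CV with leptin it was at 13.2, 32.6, 93.2, 13.8 and 16.2 TPM, where replicate 3 stood far above the others (0.34 ± 0.48 (SE), adjusted p = 0.698). In male WT CV, Pdk4 with leptin had a lowest, median and highest of 24.3, 50.9 and 162.4 TPM, against 13.8, 28.2, 55.9, 40.8 and 44.2 TPM with PBS (0.78 ± 0.43 (SE), adjusted p = 0.348). Ppara was at 1.29, 1.14, 1.46, 1.59 and 1.18 TPM with leptin in female WT CV and overlapped its PBS range (0.01 ± 0.11 (SE), adjusted p = 0.956). Ehhadh was at 8.55, 7.3, 10.6, 9.15 and 8.09 TPM with leptin in female WT CV, overlapping its PBS range (-0.08 ± 0.08 (SE), adjusted p = 0.593). The ketone genes were not called in this test. Bdh1 was at 4.41, 13.1, 7.86, 4.96 and 6.39 TPM with leptin in female WT CV, overlapping PBS (0.79 ± 0.42 (SE), adjusted p = 0.265), but it was called higher once the muscle marker level was a covariate (1.53 ± 0.39 (SE), adjusted p = 0.0441), in the fit in which Acaa1b lost its call. Oxct1 was at 25.5, 49.7, 45.4, 43.6 and 41 TPM (-0.18 ± 0.23 (SE), adjusted p = 0.676).

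Markers of other cells moved with leptin in CV. Of 20 muscle markers 3 fell in female and 6 in male WT CV, and their summed level was 34362 to 69669 TPM with PBS against 26245 to 56917 TPM with leptin in females and 69735 to 85369 against 38128 to 66655 TPM in males. Of 10 adipocyte markers 4 fell in each sex. Of 9 erythroid markers 4 rose and 1 fell in females and 5 rose in males, and their summed level was 3909 to 11904 TPM with PBS and 10648 to 44518 TPM with leptin in females and 2668 to 7571 against 9299 to 24549 TPM in males. Of 8 osteoblast markers 3 rose in females, Col1a1, Sp7 and Alpl, with a summed level of 2682 to 7012 TPM with PBS and 5677 to 17351 TPM with leptin, and none was called in males. Of 10 brown or beige adipocyte markers 1 fell in females, and 1 rose and 2 fell in males. Of 7 lymphoid markers 1 rose in females. No neutrophil marker was called in either sex. As covariates the muscle, erythroid and adipocyte levels left 17, 27 and 7 of 31 members with a negative log2 fold change in females and 23, 25 and 21 in males, against 25 in each sex without them. In males the muscle and the erythroid sums did not overlap between the groups, so those fits cannot tell them and leptin apart. The part of the other markers in the member differences was not tested.

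In iWAT the pathway split. With leptin, 12 of 31 members were called in female WT iWAT, 3 higher and 9 lower, beside 15.1% of all genes (7.24% higher and 7.87% lower). The share of members called lower, 9 of 31, was above the background share and the share called higher, 3 of 31, was near it. The members' median log2 fold change was -0.19, against 0.07 over all genes, and 23 of 31 were negative. In TPM, 2 members lay wholly above PBS and 9 wholly below, beside 4.32% and 14.3% of all genes. By step, 1 of 4 entry genes fell, 1 of 3 activation and thioesterase genes rose and 2 fell, 3 of 8 spiral genes fell, 1 of 2 double-bond genes rose and 1 fell, and 1 of 6 peroxisomal genes rose and 2 fell. The 3 electron transfer genes, 2 regulators and 3 ketone genes had adjusted p-values of 0.0701 (Etfb) or more.

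The largest rise was that of Acot1, the cytosolic thioesterase that releases long-chain fatty acids from CoA. It was at 11.7, 14.2, 27.5, 25.7 and 22.4 TPM with PBS and 59.6, 32.8, 82.1, 55.8 and 31.2 TPM with leptin. The groups did not overlap (1.46 ± 0.32 (SE), adjusted p = 0.00842). Acot2, its mitochondrial counterpart, fell, from 19, 15, 17.9, 22.1 and 21.2 TPM with PBS to 10.4, 9.92, 10, 10 and 9.5 TPM with leptin. The 5 leptin libraries of Acot2 lay within a narrow band below every PBS library (-0.84 ± 0.11 (SE), adjusted p = 0.000485). The mean ratio of Acot1 to Acot2 in TPM went from 1.06 to 5.21.

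Ehhadh and Hsd17b4, the bifunctional enzymes of the parallel peroxisomal routes, also parted. Ehhadh rose from 29.7, 23.6, 24.7, 33 and 36.9 TPM with PBS to 57.3, 42.8, 84.2, 67.6 and 75.3 TPM with leptin, with no overlap (1.25 ± 0.20 (SE), adjusted p = 0.00169). Hsd17b4 fell from 223, 189.3, 177.9, 243 and 249 TPM to 79.4, 106, 109.5, 98.3 and 125 TPM, with no overlap (-0.97 ± 0.15 (SE), adjusted p = 0.00146). Their mean ratio, Ehhadh to Hsd17b4, went from 0.136 to 0.637. Eci1, the isomerase for double bonds, rose from 233, 178.5, 211, 315 and 303 TPM to 305, 375, 390.5, 367 and 361 TPM. The Eci1 groups overlapped because PBS replicate 4 exceeded leptin replicate 1 (0.63 ± 0.16 (SE), adjusted p = 0.0164). Neither thiolase of the Acaa1 pair was called here. Acaa1b was at 62.1, 62.5, 70.1, 74.4 and 80 TPM with PBS and 119.5, 75.7, 54.1, 91.9 and 137 TPM with leptin, where replicate 3 lay below every PBS library, and the difference was 0.54 ± 0.21 (SE), adjusted p = 0.0844. For Acaa1a it was -0.05 ± 0.09 (SE), adjusted p = 0.71, and Crot fell (-0.55 ± 0.14 (SE), adjusted p = 0.0186).

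Acads, the short-chain dehydrogenase, fell from 154, 146, 135.5, 185.9 and 186.2 TPM to 58.8, 100.4, 65, 70.4 and 93.3 TPM, with no overlap (-0.97 ± 0.17 (SE), adjusted p = 0.00264). Hadh fell from 469, 431, 416, 534 and 549 TPM to 175.7, 361, 220.2, 258 and 315 TPM, with no overlap (-0.76 ± 0.19 (SE), adjusted p = 0.0154). Acaa2, the mitochondrial thiolase, fell as well (-0.61 ± 0.13 (SE), adjusted p = 0.00669). Acadm and Hadha were not called. Acadm was at 201, 321, 391, 289.8 and 342 TPM with leptin, overlapping its PBS range (-0.20 ± 0.19 (SE), adjusted p = 0.461), and Hadha was at 141, 198, 186.6, 181 and 226 TPM, overlapping at leptin replicate 5 (-0.46 ± 0.18 (SE), adjusted p = 0.0737). Acsl1 fell from 830, 650.1, 678.5, 1331 and 1294 TPM to 331.4, 728, 498, 424 and 586.5 TPM, with an overlap at leptin replicate 2 (-0.82 ± 0.27 (SE), adjusted p = 0.0476), and its call was lost in 7 of 10 fits without 1 library. Of the entry genes Cpt2 fell (-0.61 ± 0.18 (SE), adjusted p = 0.03) and Cpt1a was at 21.5, 19.9, 18.4, 17.3 and 19.7 TPM with leptin (-0.28 ± 0.10 (SE), adjusted p = 0.054). Decr1 fell by 0.56 on the log2 scale (adjusted p = 0.022). Leaving out 1 library cost Cpt2 its call in 4 of 10 fits, Decr1 in 3 and Crot in 1.

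The regulators and ketone genes gave values near their PBS levels in iWAT. Ppara was at 2.06, 4.21, 3.89, 3.22 and 2.81 TPM with leptin, within its PBS range but for 1 library (-0.01 ± 0.26 (SE), adjusted p = 0.983). Pdk4 was at 38.3, 56.3, 37, 33.9 and 44.4 TPM with leptin (0.26 ± 0.13 (SE), adjusted p = 0.148). Bdh1 was at 7.36, 5.86, 5.6, 5.54 and 5.34 TPM (0.26 ± 0.13 (SE), adjusted p = 0.148) and Oxct1 was at 85.9, 95.6, 102, 103 and 101 TPM (-0.03 ± 0.09 (SE), adjusted p = 0.84). All 12 called members had the same direction in both mouse number series. They were called on these same libraries, so that agreement is no separate support. Other markers differed between the iWAT libraries too. The summed level of 9 erythroid markers was 3835 to 5165 TPM with PBS and 433 to 2086 TPM with leptin without overlap, and with it as a covariate no member was called and 12 of 31 were negative. As the groups did not overlap in it, this fit cannot tell the erythroid level and leptin apart. In that fit the log2 fold changes of Ehhadh (1.26), Eci1 (0.79) and Acot2 (-0.89) were at least as large as without it, those of Acot1 (0.67), Hsd17b4 (-0.57) and Acads (-0.43) were smaller, and that of Cpt2 turned to 0.037. The summed muscle markers ranged from 66.2 to 4412 TPM with PBS and from 36.1 to 5815 TPM with leptin, and without the 5 libraries of most muscle RNA, which leaves 2 leptin and 3 PBS libraries, 1 member was called, Ehhadh. With so few libraries, a lost call says little about a member. With the muscle or the adipocyte marker level as a covariate all 12 members kept their calls. In those fits 23 and 22 of 31 members were negative. Of 10 adipocyte markers 1 rose and 4 fell. Of 10 brown or beige adipocyte markers Dio2 (3.76) and Elovl3 (1.69) rose and Cox7a1 (-1.25) and Otop1 (-1.10) fell on the log2 scale. Of 9 neutrophil markers Prtn3 (3.86) and Elane (2.92) rose. The 7 lymphoid markers were all positive with a median log2 fold change of 1.24, and none was called. The part of these last 3 marker groups in the member differences was not tested.

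**Figure D3:**
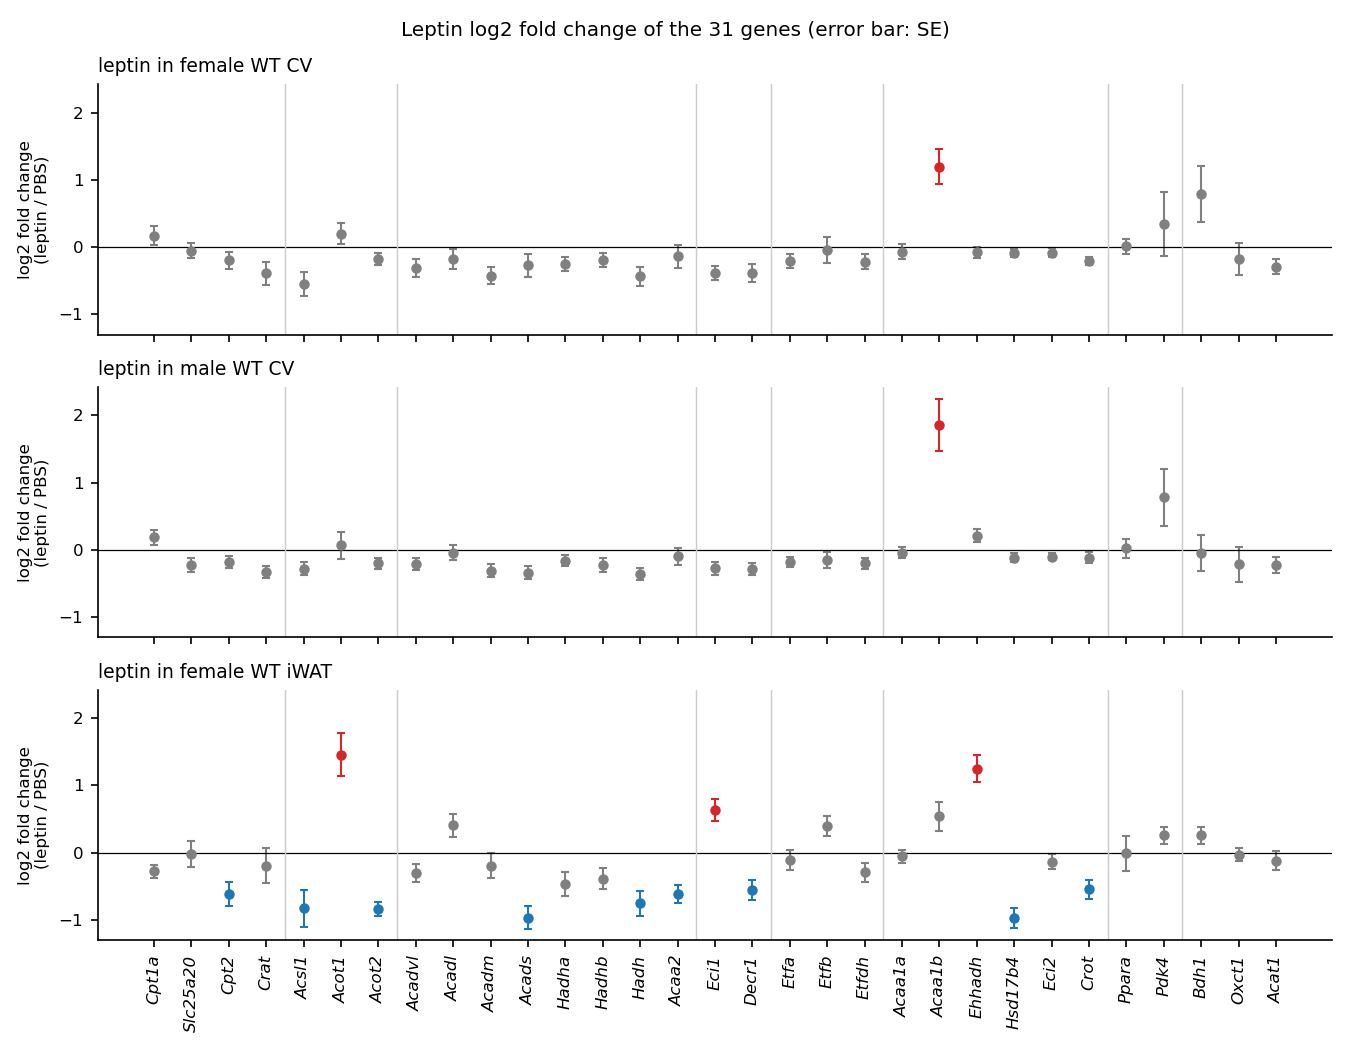
Log2 fold change of leptin against PBS for the 31 members in female WT CV, male WT CV and female WT iWAT, with vertical lines between steps; bars are standard errors, red marks a called rise, blue a called fall and grey no call. In each CV panel the called point is Acaa1b, whereas iWAT holds 3 red and 9 blue points.

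Whether leptin acted differently in the iWAT and the CV of the same 10 female WT mice was tested as a difference of the 2 effects. It was called for 5 of 31 members, 3 higher and 2 lower, beside 11.3% of all genes (4.68% higher and 6.64% lower). The members' share was near the background. Ehhadh (1.29 ± 0.23 (SE), adjusted p = 0.000977), Acot1 (1.22 ± 0.38 (SE), adjusted p = 0.0347) and Eci1 (0.99 ± 0.20 (SE), adjusted p = 0.00337) had a higher leptin effect in iWAT. Hsd17b4 (-0.91 ± 0.17 (SE), adjusted p = 0.00165) and Acot2 (-0.70 ± 0.13 (SE), adjusted p = 0.00196) had a lower one. With the mouse as a replicate block Acads was called as well. For Acaa1b the difference was -0.70 ± 0.34 (SE), adjusted p = 0.173.

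**Figure D4:**
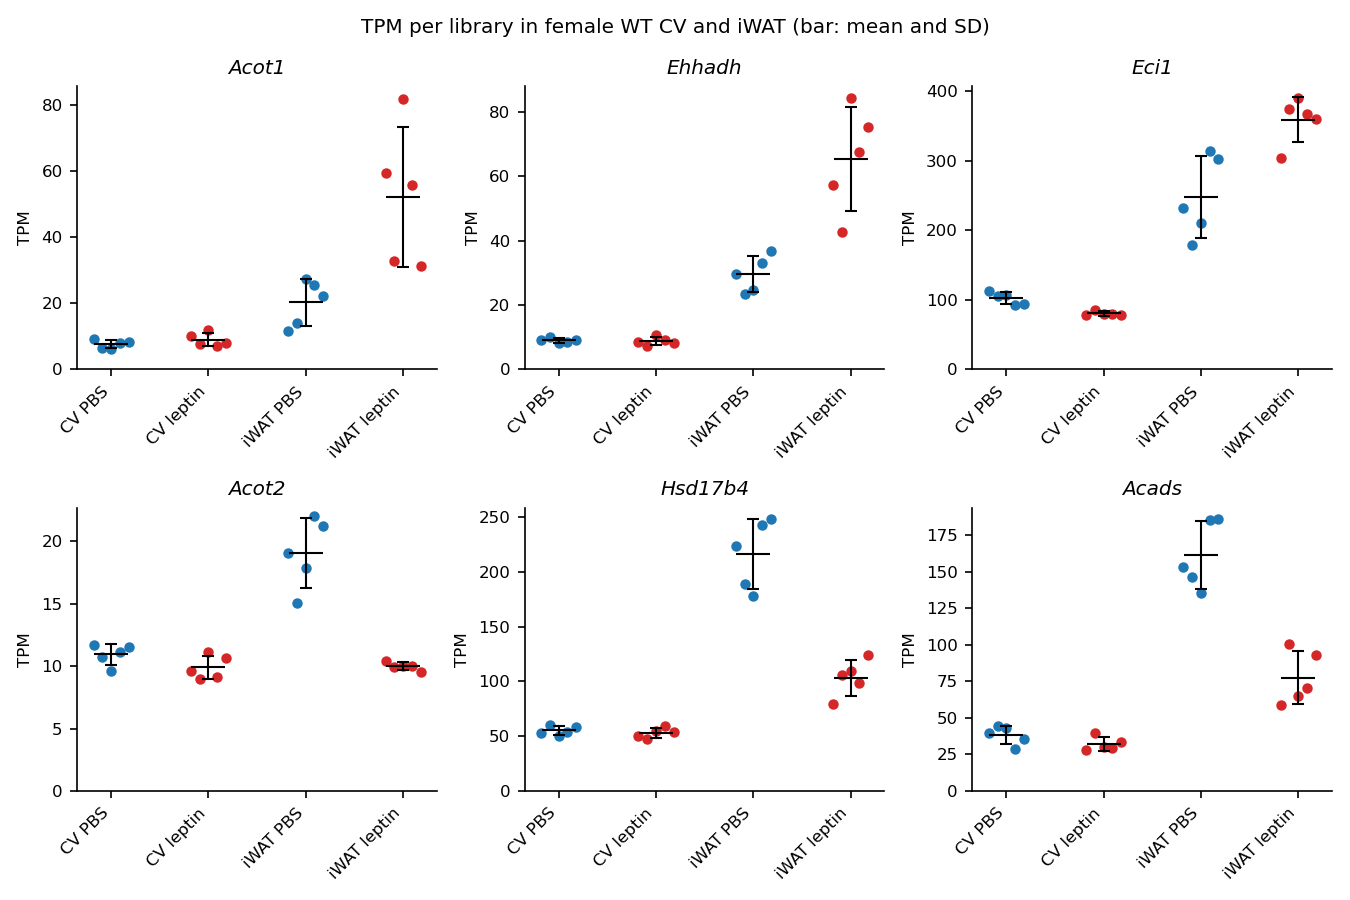
TPM per library of Acot1, Ehhadh, Eci1, Acot2, Hsd17b4 and Acads in CV and iWAT of female WT mice, PBS in blue and leptin in red, with mean and SD bars. In iWAT the means of the top row are higher and those of the bottom row lower with leptin, and the gaps between the CV means are smaller.

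In the blood-forming marrow of LV no member was called for leptin in female WT mice by edgeR or DESeq2, and 0% of all genes were called there. An unadjusted p below 0.05 was found for 9 members, beside 14.7% of all genes. The members' log2 fold changes ran from -0.59 (Pdk4) to 0.19 (Acaa1a). Cpt1a was at 18.5, 14.9, 17.7, 18.6 and 19.6 TPM with PBS and 15.4, 17, 11.7, 14.3 and 14 TPM with leptin, overlapping (-0.34 ± 0.10 (SE), adjusted p = 0.169). In female cKO LV no member was called by edgeR and 0% of all genes were called. There 8 members had an unadjusted p below 0.05, beside 8.9% of all genes. The share of all genes that DESeq2 called is not given here, and its 1 called member was Cpt1a. That gene was at 17.6, 16, 25.9 and 16 TPM with PBS and 9.58, 16.8, 12.2 and 14.1 TPM with leptin in female cKO LV. PBS replicate 3 was the highest library, and the groups overlapped (-0.66 ± 0.12 (SE), adjusted p = 0.364). The leptin effect of WT mice differed between LV and CV for no member with edgeR or DESeq2 (2.53% of all genes were called). For this difference, 6 members had an unadjusted p below 0.05, beside 15.99% of all genes. For Acaa1b, near the floor of reads in LV, that difference was -1.24 ± 0.46 (SE), adjusted p = 0.154.

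Deletion of Pnpla2 in bone marrow adipocytes was compared with WT among PBS mice. No member was called by edgeR or DESeq2 in female CV (0% of all genes), male CV (0% of all genes) or female LV (0% of all genes). An unadjusted p below 0.05 was found for 5, 1 and 1 members, beside 9.9%, 5.3% and 2.6% of all genes. In female CV the members' log2 differences ran from -0.34 (Acadm) to 0.62 (Bdh1). Acadm was at 136, 144, 129, 116 and 113 TPM in WT and 106, 93.7, 115 and 97.9 TPM in cKO female CV (-0.34 ± 0.10 (SE), adjusted p = 0.358). Bdh1 was at 9.75, 8.17, 4.84 and 3.76 TPM in female cKO CV, overlapping its WT values (0.62 ± 0.42 (SE), adjusted p = 0.655). Cpt1a was at 31.4, 32.1, 27.9 and 24.6 TPM in female cKO CV (0.22 ± 0.12 (SE), adjusted p = 0.586) and Pdk4 was at 23.2, 29.3, 32.6 and 17.5 TPM (-0.03 ± 0.19 (SE), adjusted p = 0.972). In male CV the largest difference in size was that of Bdh1 (0.39 ± 0.13 (SE), adjusted p = 0.895).

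The last comparisons asked how insulin supplementation changed the pathway in male WT CV. All insulin-treated mice carried mouse numbers from a range that held none of the other WT males, so insulin and that range cannot be told apart. Among leptin mice, insulin gave 1 called member of 31, Ppara, which rose, beside 0.363% of all genes (0.141% higher and 0.222% lower). Ppara with leptin alone had a lowest, median and highest of 0.78, 1.06 and 1.22 TPM over 8 libraries, and with leptin and insulin 1.22, 1.57 and 2.57 TPM over 6 libraries. The groups met at 1.22 TPM (0.65 ± 0.14 (SE), adjusted p = 0.035). Its call held in 16 of 24 fits without 1 library. Without leptin and insulin replicate 6, which had the highest Ppara, Pdk4 and Acaa1b of its group, Ppara was no longer called. In that fit Acaa1b (-1.60, adjusted p = 0.0277), Pdk4 (-1.75, adjusted p = 0.0321) and Cpt1a (-0.51, adjusted p = 0.0372) fell with insulin. The share of all genes called in it is not given here.

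Over all libraries Pdk4 with leptin and insulin had a lowest, median and highest of 10.6, 21.5 and 91.6 TPM, and it was not called (-1.06 ± 0.44 (SE), adjusted p = 0.225). Cpt1a had 19, 22.4 and 29.4 TPM with leptin and 13, 16.4 and 27.4 TPM with leptin and insulin, again as lowest, median and highest (-0.36 ± 0.13 (SE), adjusted p = 0.18). Acaa1b with leptin and insulin had 1.69, 2.76 and 10 TPM, its median below that of leptin alone (-1.08 ± 0.37 (SE), adjusted p = 0.142). With insulin present in both groups, leptin changed no member by edgeR (0.558% of all genes were called). With edgeR an unadjusted p below 0.05 was found for 6 members, beside 15.5% of all genes. DESeq2 called 1 member, Ppara, and the share of all genes called by DESeq2 is not given here. Acaa1b was then at 2.34, 1.68, 1.91, 3.63 and 1.63 TPM with PBS and insulin (0.89 ± 0.44 (SE), adjusted p = 0.33 for leptin), and the log2 value fell to 0.37 without replicate 6 of the leptin and insulin group. Among PBS mice insulin changed no member by edgeR or DESeq2 (0% of all genes), with 1 member at an unadjusted p below 0.05, beside 6.6% of all genes. Pdk4 was at 18.2, 28.2, 16.9, 27.6 and 25.8 TPM with PBS and insulin (-0.75 ± 0.50 (SE), adjusted p = 0.831) and Oxct1 was at 40, 42.9, 41.4, 36.1 and 51.1 TPM (0.20 ± 0.24 (SE), adjusted p = 0.924). The leptin by insulin interaction was called for no member by edgeR or DESeq2 and for 0% of all genes. An unadjusted p below 0.05 was found for 3 members, Etfa, Eci2 and Ppara, beside 9.3% of all genes. The interaction was 0.61 ± 0.23 (SE), adjusted p = 0.529, for Ppara and -0.97 ± 0.60 (SE), adjusted p = 0.601, for Acaa1b.

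**Figure D5:**
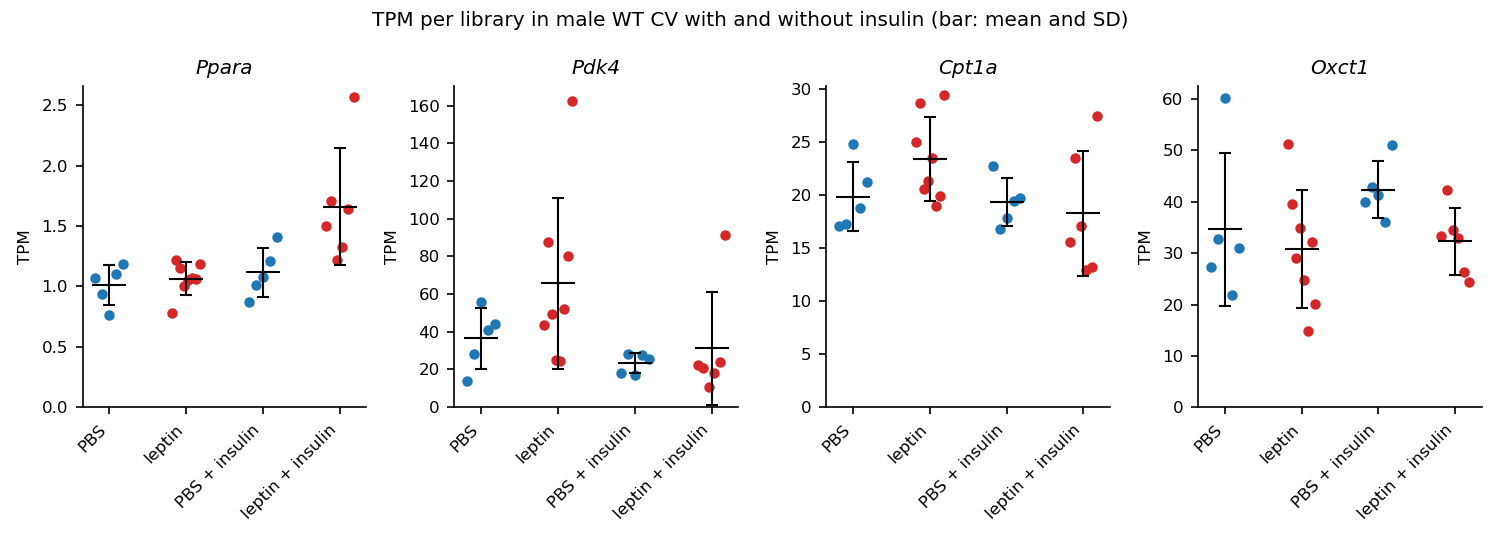
TPM per library of Ppara, Pdk4, Cpt1a and Oxct1 in the 4 groups of male WT CV, with mean and SD bars; blue is without and red with leptin. Replicate 6 of the leptin and insulin group is the highest point for Ppara and stands apart from its group for Pdk4.

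Other genes of the same pathway, taken from lists drawn up with earlier results of these data known, add 24 genes of oxidation, 21 peroxisomal, 8 ketone and 21 control genes among those tested. With leptin in female WT iWAT, 2 of 24 oxidation genes rose and 2 fell, 6 of 21 peroxisomal genes rose and 2 fell, 1 of 8 ketone genes rose and 1 fell, and 1 of 21 control genes rose and 2 fell, beside 7.24% of all genes higher and 7.87% lower. The largest changes were in 2 peroxisomal thioesterases encoded beside Acot1. Acot3 was at 0.11, 0, 0.18, 0.14 and 0.23 TPM with PBS and 7.73, 2.68, 8.4, 8.63 and 5.42 TPM with leptin (5.76 ± 0.53 (SE), adjusted p = 8.73e-05), and its fold change rests on PBS levels near 0. Acot5 was at 0.41, 0.13, 0.43, 0.45 and 0.49 TPM with PBS and 14.6, 3.53, 15.2, 17.3 and 9.61 TPM with leptin (5.10 ± 0.49 (SE), adjusted p = 9.8e-05). No library of one group reached the range of the other for either gene. Slc27a2, a very-long-chain acyl-CoA synthetase, rose from 2.25, 0.54, 2.81, 0.66 and 0.70 TPM to 6.61, 14.4, 20.5, 19.5 and 13.8 TPM (3.54 ± 0.51 (SE), adjusted p = 0.000962). Hsd17b10, a mitochondrial short-chain dehydrogenase, rose from 253, 228, 265, 290.4 and 294 TPM to 672, 669, 1177, 700.5 and 576 TPM (1.61 ± 0.19 (SE), adjusted p = 0.000357). Both were without overlap between groups. Abcd2, a peroxisomal transporter of very long chains, fell from 90.5, 62.3, 81.6, 95.2 and 121 TPM to 22, 37.2, 29.9, 33.4 and 38 TPM, with no overlap (-1.39 ± 0.20 (SE), adjusted p = 0.000921).

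In female WT CV, 1 of 24 oxidation genes and 2 of 21 peroxisomal genes fell with leptin, beside 2.25% of all genes. No ketone or control gene was called by edgeR, although 1 ketone and 3 control genes had an adjusted p below 0.05 with a smaller fold change. The 3 that fell were Cpt1b, the muscle form of the entry transferase (-0.74 ± 0.21 (SE), adjusted p = 0.048), Abcd2 (-0.71 ± 0.16 (SE), adjusted p = 0.0221) and Ech1, an isomerase of both organelles (-0.61 ± 0.16 (SE), adjusted p = 0.0349). Cpt1b went from 43.2, 39.9, 35.5, 31.5 and 27.2 TPM with PBS to 16.2, 28.9, 23.4, 17.7 and 20.8 TPM with leptin. No gene of these 4 lists was called by edgeR in male WT CV, where 2 oxidation, 1 ketone and 1 control gene had an adjusted p below 0.05 with a smaller fold change. The leptin effect differed between iWAT and CV for 2 oxidation, 5 peroxisomal and 2 control genes in the higher direction and for 1 control gene in the lower direction, with Acot5 (5.41) and Slc27a2 (4.00) among the higher ones. Beside these, 4.68% of all genes were called higher and 6.64% lower.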

How the data were processed

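RNA from 79 libraries of 51 mice was sequenced as paired-end reads after poly(A) selection. The authors deposited a table of estimated counts per gene and a table of TPM values. The submitters' processing notes name HISAT, Bowtie2, GRCm38.p6 and GRCm39, and the study's methods give GRCm38.p6. The roles of the aligners and their versions are not given in the sources used here. Multimapping reads are shared between copies by such estimates, which matters for Acaa1a and Acaa1b, for Acot1 and Acot2 and for Etfb. Only 51 of the deposited estimated counts, in 6 features, were not whole, and counts were rounded. Of 74693 features, 39063 had a numeric gene ID and 14873 had a mean of at least 0.4 TPM.

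Each comparison was fitted with edgeR 4.0.16 (R 4.3.3) by quasi-likelihood tests. Library sizes were scaled by TMM and p-values adjusted over the 14873 genes by the Benjamini-Hochberg method. A call needed an adjusted p below 0.05 and a log2 fold change of at least 0.5 in size. The SE is the log2 fold change divided by the root of F. Leptin comparisons used the groups compared, tissue comparisons and the iWAT and LV effect differences used female WT mice, and insulin comparisons used the 4 male WT groups. Tested on simulated data in which 200 of 14873 genes were given a log2 change of 1.5, calls recovered 196 in female WT CV, 199 in male WT CV and 187 in iWAT, with 6, 4 and 6 false calls. The changed genes were drawn only from those above a minimum of expected reads. Recovery of smaller changes, or of genes with fewer reads, was not tested.

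The 31 members, the 79 other pathway genes, the marker lists and the tests were chosen with earlier results of these data known. Members called were given library by library, at most 8 per comparison by fold change, with Cpt1a, Acadm, Hadha, Ppara, Pdk4, Ehhadh, Bdh1 and Oxct1 wherever they bore on a comparison, and at most 6 other pathway genes were named per comparison. Another gene of the pathway is not reported here. Alternatives were DESeq2 1.42.0, RLE scaling, no filter on low genes, no fold threshold, replicate or mouse blocks, 1 fit of all groups of a tissue, mouse number series, limma 3.58.1 on log2(TPM + 1) and log2(TPM + 0.1), a muscle marker covariate and leaving out each library. The erythroid and adipocyte covariates, the muscle covariate in iWAT and iWAT without its muscle-rich libraries, those above 10 times the lowest muscle marker sum, were added after the data were seen. Tissues of the same mouse were checked for pairing through the mouse numbers in the labels. Their deviations from group means correlated by -0.0051 to 0.24 between CV and LV and by -0.024 to 0.30 between iWAT and CV over 5 pairs each, and the mouse block is given where it changed a call.

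Promoter sequences are from RefSeq on GRCm38.p6, and 26 of 31 members had an entry. Acaa2, Acat1, Crat, Decr1 and Hsd17b4 had none. Shared windows were counted on GENCODE vM21 transcripts of that build. Intervals and fold changes for genes of few reads, such as Acaa1b in LV, cover this counting poorly.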

Additional observations from a re-analysis of the deposited data

Results flagged for a closer look

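For 8 members followed in every group, for Acaa1b and, in iWAT, for the other members called there, each group of 4 to 8 libraries was searched for a library far from the rest of its group, and 11 were found, in 6.63% of the groups. Chance alone gives about 1 in 20 groups, here about 8.3. Pdk4, the brake on pyruvate oxidation, accounted for 4 of them, each a high value. It reached 93.2 TPM in replicate 3 of female WT CV with leptin (the others 13.2 to 32.6), 68.0 TPM in replicate 5 of male cKO CV with PBS (the others 32.2 to 38.9), 162.4 TPM in replicate 8 of male WT CV with leptin (the others 24.3 to 87.5) and 91.6 TPM in replicate 6 of male WT CV with leptin and insulin (the others 10.6 to 23.8). That last library was also high for Ppara, at 2.57 TPM against 1.22 to 1.71, and for Acaa1b, at 10.04 TPM against 1.69 to 4.53. Replicate 3 of male WT CV with PBS was high for Acaa1b, at 4.61 TPM against 1.08 to 2.10, and for Oxct1, at 60.3 TPM against 21.8 to 32.8. Bdh1 was high in replicate 3 of female WT CV with PBS, at 8.87 TPM against 2.78 to 3.88, and in replicate 1 of female WT iWAT with leptin, at 7.36 TPM against 5.34 to 5.86. Cpt1a was high in replicate 3 of female cKO LV with PBS, at 25.9 TPM against 16 to 17.6.

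Leptin's effect differed between iWAT and CV of the same female WT mice, by the test of the difference itself, for 5 members. On the log2 scale, iWAT minus CV, the difference was 1.29 for Ehhadh, 1.22 for Acot1 and 0.99 for Eci1, and it was -0.91 for Hsd17b4 and -0.70 for Acot2.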

How the results depend on the processing

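Of 133 counts of called members under the alternatives fixed at the start that kept every library, 121 stayed within 1.5 times the main count and 12 moved. For leptin in female WT CV the count was 1 in the main test and 2 with no fold threshold, DESeq2, the replicate block, 1 fit of all CV groups and limma with either pseudocount, and 0 with the erythroid covariate. With the muscle covariate it stayed 1, but Bdh1 took the place of Acaa1b. For leptin in male WT CV it was 0 with the muscle or the erythroid covariate, against 1. In female cKO CV it was 2 with DESeq2 and 1 with the fit of all CV groups, against 0. It was 1 with DESeq2 against 0 for leptin in female cKO LV and for leptin with insulin in male WT CV. For insulin with leptin it was 2 with the replicate block, against 1, Acaa1b joining Ppara. In iWAT it was 0 of 12 with the erythroid covariate, under which Cpt2 turned to 0.037, and 1 without the muscle-rich libraries. It stayed 12 in iWAT with the muscle or the adipocyte covariate. Leaving out 1 library gave 0 to 5 in female WT CV, 0 to 1 in male WT CV, 9 to 12 in iWAT, 0 to 3 for insulin with leptin, 0 to 1 for leptin with insulin and 0 in cKO CV, LV, insulin with PBS and the leptin by insulin interaction, and leaving out 1 mouse gave 15 to 16 for CV against LV and 28 to 29 for iWAT against CV. Such refits were not run for the genotype comparisons or the other effect differences. Shares of all genes called under the alternatives are not given beside these counts, so a moved count may not be particular to the members. Different mice that share a replicate number were not treated as pairs in the main test. In no comparison did every pair correlate above 0.1 (-0.27 to 0.41 in female WT CV). The same held for tissues of the same mouse, so the check cannot tell pairs from other mice. The replicate block also gave 11 in iWAT, against 12, where Acsl1 lost its call, and it changed no further count. The mouse block gave 16 for CV against LV and 28 for iWAT against CV, as in the main test. For the leptin effect in iWAT against CV it gave 6, against 5, Acads joining. Of 345 values of single member calls, 288 kept direction and side of the threshold, 56 lost the call and 1 reversed. The cause of these shifts was not tested. Acaa1b and Ppara had few reads per library in CV, which limits their precision.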
